A study of Mus musculus with 16 samples.

Results

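Cycling macrophages were the tumor macrophages in which transcripts of the proliferation genes Mki67 and Top2a were read. They were taken from single-cell RNA libraries of CD45+ (hematopoietic) cells by a rule on 4 sets of genes. A cell barcode had to carry at least 2 unique molecular identifiers (UMIs, each standing for 1 captured transcript) of C1qa, C1qb and C1qc together per 1000 UMIs, at least 2 UMIs of Mki67 and Top2a together, and none of Cd3d, Cd3e or Fcrl5. Of 28678 called barcodes, 16349 were kept by gene number, mitochondrial content and removal of shared barcodes, and 480 of these met the rule. The C1q rule without the cycling requirement held 1920 barcodes, of which 1126 had no UMI of Mki67 or Top2a and served as the non-cycling macrophages.

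The cells came from tumors grown under the skin of C57BL/6J mice from 1 of 2 cell lines: MC38, a colorectal carcinoma line, or Panc02-SIY, a pancreatic adenocarcinoma line made to express the model peptide antigen SIY. Tumors were left untreated or received 12 Gy of CT-guided radiation, and CD45+ cells were sorted 24 h after treatment, with 4 libraries in each of the 4 groups. All mice were wild type, so the groups differed by tumor line and by radiation. The sources differ on how many animals each group had, and no label ties a library to an animal, so p-values measure the spread between libraries, which may be in part technical. The libraries held 4829078 to 9833668 UMIs in untreated MC38 tumors, 3240877 to 10121198 in irradiated MC38 tumors, 6561383 to 43776342 in untreated Panc02-SIY tumors and 5327146 to 26824513 in irradiated Panc02-SIY tumors.

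Macrophages in tumors arise from blood monocytes and from tissue-resident cells, and both can divide in place. Mki67 is transcribed through the active cell cycle and Top2a, the topoisomerase that untangles replicated DNA, mainly in S, G2 and M phases. After ionizing radiation breaks DNA, the transcription factor p53 turns on Cdkn1a, whose protein p21 inhibits cyclin-dependent kinases. E2F target genes of S phase and DREAM target genes of G2 and mitosis are then held down.

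Untreated MC38 tumors held 39, 24, 53 and 84 cycling macrophages in replicates 1 to 4, and irradiated MC38 tumors held 8, 22, 27 and 49. Untreated Panc02-SIY tumors held 1, 19, 11 and 96, and irradiated Panc02-SIY tumors 1, 10, 10 and 26. The group totals were therefore 200 untreated and 106 irradiated members in MC38, against 127 and 47 for Panc02-SIY. The sums over cells entered the gene tests only for libraries with at least 5 members, which left out replicate 1 of both Panc02-SIY groups and set 4 libraries against 4 in MC38 and 3 against 3 in Panc02-SIY.

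The libraries of the MC38 tumors shared barcodes. Their 9843 called barcodes were 2632 distinct strings, and 290 of the 306 MC38 members had a copy in at least 1 other MC38 library, 211 of them in all 8. The second largest copy of a member held a median of 5.29% and at most 20.4% as many UMIs as the one kept. With every copy kept, the same rule gave 480 MC38 barcodes in place of 306. In Panc02-SIY, 4 of 174 members had a copy elsewhere. Below, the differences in shares between the MC38 groups are given with and without the removal. So is the count of genes whose response differed between cycling and non-cycling MC38 macrophages. Other counts of called genes are given with the removal alone.

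Depth also set the tumors apart. The members held a median of 42132.5 UMIs and 5755 genes in untreated MC38 tumors, 34341.5 and 5086.5 in irradiated MC38 tumors, 3099 and 1351 in untreated Panc02-SIY tumors, and 8589 and 2654 in irradiated Panc02-SIY tumors. A fixed count of 2 UMIs of Mki67 and Top2a was thus a looser requirement in MC38 than in Panc02-SIY. The values that chose the members lay close to the limits in many of them. In MC38, 79 members had exactly 2 UMIs of Mki67 and Top2a and 152 C1q macrophages just outside had 1, with median depths of 32600 and 26542 UMIs. In Panc02-SIY, 67 had exactly 2 and 162 had 1, with median depths of 2699 and 2819. At the C1q limit, 10 MC38 members carried 2 to 3 C1q UMIs per 1000 and 10 barcodes just outside carried 1 to 2, against 14 and 11 in Panc02-SIY. The median C1q level was 14.95 per 1000 UMIs in MC38 members and 8.90 in Panc02-SIY members.

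The requirement for no Fcrl5 UMI acted only in Panc02-SIY. There, 344 C1q+ cycling barcodes without Cd3d or Cd3e were turned away because they carried Fcrl5, and 174 were kept. No MC38 barcode was turned away this way. The share without Fcrl5 was lower in deep barcodes: of the Panc02-SIY barcodes with at least 10000 UMIs, 44 of 337 (13.1%) had none, 8.82% below 20000 UMIs and 17.4% above, and 101 of the 174 members had fewer than 5000 UMIs. Many Panc02-SIY members were therefore shallow barcodes in which a transcript of Fcrl5 could be missed. Xcr1, a receptor of cross-presenting dendritic cells, was at 130 CPM (the UMIs of a gene relative to all UMIs of the pooled cells) in the Panc02-SIY members and at 262 CPM in the barcodes with Fcrl5. Cadm1, also high in that lineage, was at 508 and 675 CPM. In MC38 members the same genes were at 1.20 and 32.4 CPM.

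**Figure D1:**
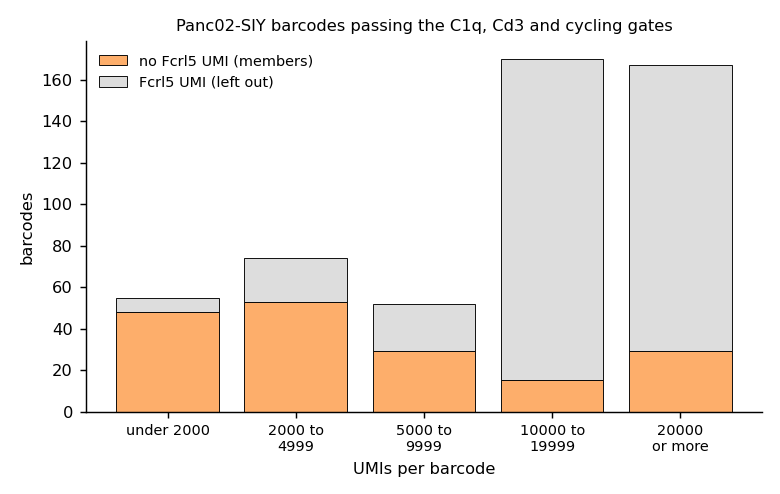
Panc02-SIY barcodes that met the C1q, Mki67 and Top2a and Cd3 requirements, by their number of UMIs (x axis) and count of barcodes (y axis), split into those without Fcrl5 (the members) and those with it. The share without Fcrl5 was 87.3, 71.6, 55.8, 8.82 and 17.4% from the shallowest class to the deepest.

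The label was checked against markers. All 15 macrophage markers were detected in the members of both tumors, with a summed level of 45046 CPM in MC38 and of 20539 CPM in Panc02-SIY, but 3 of them were the C1q genes of the rule. The other 12 were all detected and summed to 30338 CPM in MC38 and to 9253 CPM in Panc02-SIY, led by Apoe in both. The lipid-handling receptor Trem2 was at 532 CPM in MC38 members and 25.02 CPM in Panc02-SIY members, and the lysozyme gene Lyz2 was at 8637 and 1157 CPM. C1qa was also read in T cells (at least 2 UMIs of Cd3d and Cd3e), which held 1305 CPM of it in MC38 and 349 CPM in Panc02-SIY beside the 5636 and 4392 CPM of the members, whose height the rule had set.

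Several lists of markers of other cell types were higher in Panc02-SIY members. Their summed levels in MC38 and Panc02-SIY were 10.7 and 57.9 CPM for the T cell list, led by Cd3g and Trbc2, 9.13 and 357 CPM for the NK cell list, led by Gzma, and 32.4 and 608 CPM for the neutrophil list, led by Csf3r and S100a9. They were 48.2 and 318 CPM for conventional dendritic cells, led by Batf3 and Xcr1, and 16.3 and 30.3 CPM for B cells, led by Cd79b. The monocyte list, at 1027 CPM in MC38, led by Ccr2, and 539 CPM in Panc02-SIY, led by Plac8, and the tumor and stroma list, at 26.5 CPM, led by Col3a1, and 7.90 CPM, led by Sparc, were higher in MC38. The defining dendritic genes Flt3 and Zbtb46 were near 0, at 0.33 and 0.40 CPM in MC38 and 1.98 and 0.66 CPM in Panc02-SIY. All erythroid genes were at 0, and Cd3d and Cd3e were at 0 by the rule. Of the epithelial genes, the keratins Krt8 and Krt19 were at 0 in both tumors and Krt18 in MC38 alone. Epcam was detected in the members of both tumors and Krt18 in those of Panc02-SIY. The Panc02-SIY barcodes thus met the macrophage list but carried a C1q+, partly Xcr1+ profile that differed from that of MC38, and the name macrophage is less well founded there. The part that other cells and missed Fcrl5 had in the differences between tumors was not tested.

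Cycling macrophages made up a smaller share of C1q macrophages in irradiated than in untreated MC38 tumors. The share was 41.9, 47.1, 53.5 and 48.6% in the untreated libraries and 26.7, 39.3, 27.8 and 29.0% in the irradiated ones. Every irradiated library was below every untreated library, with group values of 47.8% ± 4.78 and 30.7% ± 5.81 (SD, n = 4 each). The difference was -17.1 percentage points (exact two-sided permutation test, p = 0.0286, the smallest this design allows, adjusted p = 0.0571 over 4 comparisons). It no longer passed without untreated MC38 replicate 2, 3 or 4 (exact permutation, adjusted p = 0.114 for each). Counting error alone gave exact 95% binomial (Clopper-Pearson) intervals of 31.8 to 52.6% for the lowest untreated library and 26.5 to 53.2% for the highest irradiated one, and these intervals overlapped.

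In Panc02-SIY tumors the shares were 2.33, 11.7, 13.6 and 21.4% without radiation and 1.89, 12.99, 12.3 and 12.6% with it. The groups overlapped, at 12.3% ± 7.85 and 9.96% ± 5.39 (SD, n = 4 each), and the difference of -2.29 points did not pass (exact permutation p = 0.686). The difference between tumors in this change was -14.8 points (exact permutation p = 0.082, adjusted p = 0.109), so it did not pass either. It passed the threshold of 0.1 when 1 library was left out, whether from MC38 (exact permutation, adjusted p = 0.0958 without untreated replicate 1 and 0.086 without irradiated replicate 2) or from Panc02-SIY (0.0381 without untreated replicate 4 and 0.0463 without irradiated replicate 1). Among untreated tumors the MC38 share was 35.5 points higher (exact permutation, adjusted p = 0.0571). That difference no longer passed without untreated MC38 replicate 2, 3 or 4 (exact permutation, adjusted p = 0.114 for each).

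These shares depended on depth and on shared barcodes. With every barcode thinned to 2000 UMIs, after Cd3 and Fcrl5 had been read, the share went from 4.53% ± 1.64 to 1.18% ± 1.01 in MC38 and from 10.3% ± 6.19 to 1.90% ± 1.64 in Panc02-SIY (SD, n = 4 each). The direction within each tumor was kept. The MC38 groups then overlapped and the Panc02-SIY groups did not (exact permutation, adjusted p = 0.114 in both tumors). With Cd3 and Fcrl5 read after thinning, the MC38 groups did not overlap, at 4.83% ± 0.94 and 1.24% ± 0.89, and the Panc02-SIY groups did (exact permutation, adjusted p = 0.114 and 0.267). The first of these thinnings was chosen after seeing the data. In both the order of the tumors turned, with untreated MC38 minus untreated Panc02-SIY at -5.75 and -6.26 points (exact permutation, adjusted p = 0.152 and 0.229). Thinning left out 83 and 69 kept barcodes of untreated and irradiated MC38 tumors and 778 and 727 of Panc02-SIY, with 2, 1, 36 and 12 members among them. With a rate of at least 2 Mki67 and Top2a UMIs per 10000 in place of a fixed count, the MC38 shares were 15.3 and 5.66% (adjusted p = 0.229) and untreated MC38 was 3.77 points above untreated Panc02-SIY (adjusted p = 0.548). With the shared barcodes kept, the MC38 difference was -3.915 points (exact permutation, adjusted p = 0.571).

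**Figure D2:**
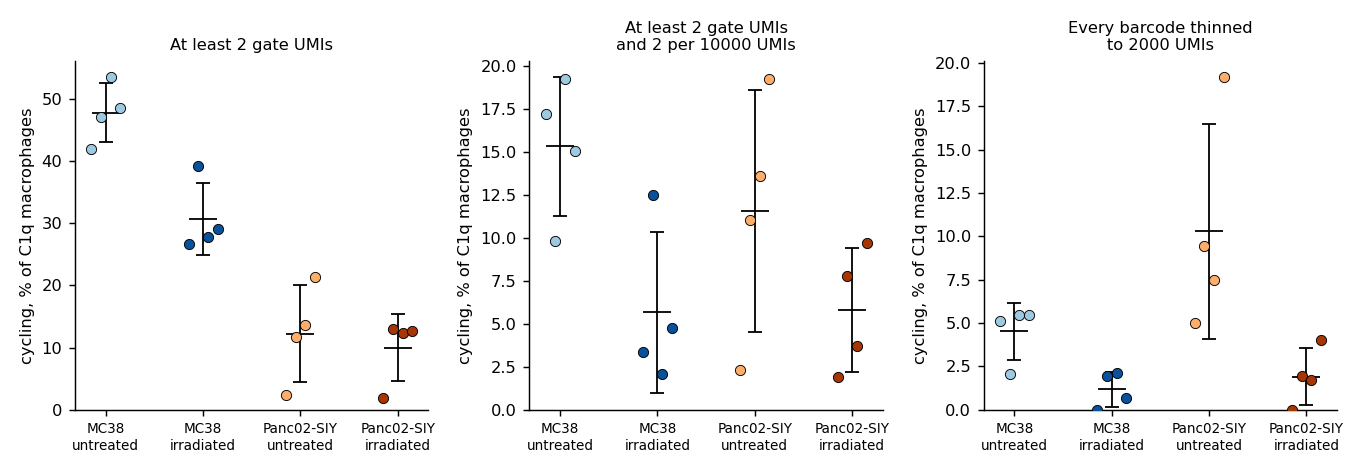
Cycling macrophages as a percent of C1q macrophages (y axis) in each library of the 4 groups (x axis), by the fixed count, by a rate per 10000 UMIs and after thinning to 2000 UMIs. Points are libraries and bars are means ± SD. In all 3 panels the irradiated mean was below the untreated mean of the same tumor, and thinning placed untreated MC38 below untreated Panc02-SIY.

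As a share of all kept CD45+ barcodes, cycling macrophages went from 23.8% ± 3.46 to 13.6% ± 3.28 in MC38 (SD, n = 4 each), a difference of -10.2 points (exact permutation, adjusted p = 0.0522). In Panc02-SIY they went from 1.20% to 0.532%, a difference of -0.670 points (exact permutation p = 0.343), but without untreated replicate 1, which held 1 member, it was -1.03 points and passed (exact permutation, adjusted p = 0.0571). Without untreated replicate 4 it was -0.156 points, and with members of at least 5000 UMIs its sign turned (0.0283 points). The difference between the tumors in this change was -9.52 points (exact permutation p = 0.0392, adjusted p = 0.0522). It no longer passed with the shared barcodes kept (-1.98 points, adjusted p = 0.343), after thinning (-1.45, adjusted p = 0.296) or under the rate (-4.44, adjusted p = 0.113), and neither did the MC38 difference (-2.65, -2.18 and -5.22 points, with exact permutation adjusted p = 0.229, 0.114 and 0.113).

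Radiation changed the expressed genes of cycling macrophages in both tumors. Of 10269 genes tested on the sums per library (edgeR, called at an adjusted p under 0.1 with a change of over 1.3 times), 402 were higher and 516 lower in irradiated MC38 members, 8.94% of the genes tested. In Panc02-SIY 149 were higher and 138 lower, 2.79% of the genes. Under the rate requirement 267 genes were called in MC38 and 110 in Panc02-SIY, and with 1 Panc02-SIY library left out that tumor had 143 (irradiated replicate 3), 157 (irradiated replicate 4), 160 (untreated replicate 4) or 180 (untreated replicate 2). Groups that did not overlap made up 15.4% of genes in MC38 and 13.5% in Panc02-SIY. With 3 libraries against 3 in Panc02-SIY, groups separate by chance more often than with 4 against 4 in MC38. These 2 shares are therefore not alike in weight, and a lack of overlap says less in Panc02-SIY. Both comparisons called 156 genes, of which 57 were higher and 98 lower in both tumors. These 156 were 17.0% of the genes called in MC38, where 2.79% of all genes were called in Panc02-SIY. They were 54.4% of those called in Panc02-SIY, where 8.94% of all genes were called in MC38. The comparisons share no libraries but were fitted jointly with a shared estimate of the spread, so their calls are not fully independent. The remaining gene, Id1, an inhibitor of DNA binding by helix-loop-helix factors, was higher in irradiated MC38 members (log2 fold change 1.01 ± 0.34) and lower in irradiated Panc02-SIY members (-4.15 ± 1.17), where it was at 40.5, 71.1 and 15.7 CPM in untreated libraries and at 0, 4.29 and 0 CPM in irradiated ones, 23 UMIs against 1. That call was lost in 10 settings, among them a gate of at least 3 UMIs, the rate, the dropped Fcrl5 requirement and the removal of any single Panc02-SIY library other than untreated replicate 4, and DESeq2 gave no adjusted p. With scaling by library size alone, the MC38 split was 264 higher and 860 lower and the median of all genes moved from -0.005 to -0.12 on the log2 scale.

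Targets of p53 rose in irradiated cycling macrophages. In MC38, 17 of 27 tested members of the list were called higher and 0 lower, where 3.91% of all genes were called higher, and the median log2 fold change of the list was 1.24 beside -0.005 for all genes. In Panc02-SIY, 9 of 27 were called higher and 0 lower, where 1.45% of all genes were called higher, with a median of 0.92 beside 0.04, and 4 without untreated replicate 4 or irradiated replicate 4. The list held 30 genes, 3 of which did not pass the filter on low counts.

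Cdkn1a (ENSMUSG00000023067, chr17:29090979-29100722 in GRCm38.p6), the gene of the kinase inhibitor p21, had the smallest p in both tumors among p53 targets. In MC38 members it was at 323, 280, 316 and 274 CPM without radiation and at 1044, 1738, 1674 and 1360 CPM with it. Here and below, CPM of a single library are scaled by the trimmed mean of M-values. In Panc02-SIY members, replicates 2 to 4 were at 48.6, 20.3 and 47.1 CPM without radiation and at 841, 767 and 1253 CPM with it. Every irradiated library was above every untreated library of its tumor, and the untreated MC38 libraries were all above the untreated Panc02-SIY libraries. The log2 fold change with radiation was 2.29 ± 0.16 (SE) in MC38 (edgeR, adjusted p = 1.38e-11) and 4.47 ± 0.27 in Panc02-SIY (adjusted p = 1.4e-13). The difference between these changes, -2.18 ± 0.32, was itself called (adjusted p = 0.0009), and it was the only gene of 10269 (0.00974%) called for a difference between tumors in the radiation response, where 627 genes had an unadjusted p below 0.05 and DESeq2 called 30. With 1 library left out it was 5 genes (irradiated Panc02-SIY replicate 3), 4 (untreated Panc02-SIY replicate 3), 3 (untreated Panc02-SIY replicate 4) or 2 (untreated Panc02-SIY replicate 2 or irradiated MC38 replicate 4). The call of Cdkn1a itself for this difference was kept in 28 settings and lost in 1.

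Upstream of Cdkn1a, letters of the p53 motif CATGNNNNNNCATG stood 250 bases before to 50 after the gene start in 1 of 22 matched p53 targets (4.55%) and in 0.833% of 27025 promoters in the RefSeq table of GRCm38.p6, searched on both strands. The 1 target with a match was Cdkn1a itself, so this share does not show an excess in the list. A shorter p53 motif stood in 2 of the 22 targets (9.09%), near the 8.51% of all promoters. The stretch that holds the longer motif is shown because Cdkn1a carried the only difference between tumors in the radiation response that edgeR called. The match is in capitals, read 5′ to 3′ on the plus strand at chr17:29090909-29090966.
Cdkn1a: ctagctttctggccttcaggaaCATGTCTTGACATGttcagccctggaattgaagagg

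Phlda3 (ENSMUSG00000041801, chr1:135766085-135769134), a repressor of AKT signaling, was nearly silent without radiation. It was at 5.69, 4.47, 9.37 and 3.21 CPM in untreated MC38 members and at 48.9, 152, 130 and 85.0 CPM in irradiated ones. In Panc02-SIY members it was at 0, 0 and 4.29 CPM and at 33.6, 30.01 and 43.2 CPM. The groups did not overlap in either tumor, and the log2 fold changes were 4.25 ± 0.30 (edgeR, adjusted p = 5.01e-10) and 3.45 ± 0.85 (adjusted p = 0.0357). Ccng1 (chr11:40748552-40755309), which encodes cyclin G1, was at 25.9 to 38.0 CPM in untreated and at 69.8 to 214 CPM in irradiated MC38 members (2.40 ± 0.21). In Panc02-SIY members it was at 50.8 to 67.1 and at 161 to 225 CPM (1.60 ± 0.32).

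Mdm2, the ubiquitin ligase that degrades p53, was at 34.1, 51.0, 51.3 and 42.7 CPM in untreated MC38 members and at 182, 199, 120 and 122 CPM in irradiated ones (1.76 ± 0.22, edgeR, adjusted p = 8.69e-06). Its level in Panc02-SIY was 24.3, 30.5 and 45.7 CPM without and 47.1, 55.7 and 142 CPM with radiation, which did not overlap but did not pass the test (1.17 ± 0.41, adjusted p = 0.183). The other targets called higher in MC38 were the sugar reductase gene Dcxr (2.02 ± 0.18), the p53 cofactor gene Trp53inp1 (3.09 ± 0.37), the RNA-binding factor gene Zmat3 (2.61 ± 0.28), the death genes Bax (1.32 ± 0.16), Bbc3 (1.96 ± 0.28) and Fas, and Sesn2, Ei24, Plk2, Aen, Gdf15, Btg2 and Ddit4. Those called higher in Panc02-SIY beside Cdkn1a, Ccng1 and Phlda3 were Zmat3 (3.54 ± 0.70), Dcxr (1.65 ± 0.36), Btg2, Bax, Trp53inp1 and Bbc3.

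Cdkn1a was higher after radiation at low and at high levels of the proliferation genes. Among MC38 members with 2 to 4 UMIs of Mki67 and Top2a, pooled Cdkn1a was at 308 CPM without radiation (106 cells) and at 1396 CPM with it (72 cells). Among those with 10 or more, it was at 280 CPM (47 cells) and at 1089 CPM (11 cells). These pooled values have no replicate error.

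Genes of S phase fell. In MC38, 38 of 42 list members were called lower and 0 higher, where 5.02% of all genes were called lower, and all 42 log2 fold changes were below 0 with a median of -1.75. In Panc02-SIY, 15 of 42 were called lower and 0 higher, where 1.34% of all genes were called lower, with a median of -1.47, and the count was 4 without untreated replicate 4 and 7 without irradiated replicate 3.

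Mcm5 (ENSMUSG00000005410, chr8:75109468-75128439), a subunit of the replicative helicase, was at 72.6, 103, 61.6 and 64.9 CPM in untreated MC38 members and at 20.9, 6.99, 14.3 and 20.5 CPM in irradiated ones. The groups did not overlap (log2 fold change -2.21 ± 0.28, edgeR, adjusted p = 4.75e-06). In Panc02-SIY members it was at 81.0, 20.3 and 109 CPM and at 13.5, 30.01 and 30.9 CPM, which overlapped through the untreated replicate 3 (-1.71 ± 0.44, adjusted p = 0.0438). Lig1 (chr7:13277175-13311426), the ligase that joins Okazaki fragments, was at 69.1 to 98.4 CPM and at 6.98 to 19.2 CPM in MC38 (-2.33 ± 0.23). The Panc02-SIY members had 50.8 to 105 CPM and 20.2 to 25.7 CPM (-1.94 ± 0.38), without overlap in either tumor. The thymidylate synthase gene Tyms (-2.49 ± 0.28 in MC38 and -3.49 ± 0.65 in Panc02-SIY), the helicase subunit gene Mcm7 (-2.76 ± 0.29 and -2.73 ± 0.52) and the sliding clamp gene Pcna (-1.14 ± 0.18 and -1.05 ± 0.28) were called lower in both tumors. So were Rrm1, the large subunit of ribonucleotide reductase (-1.72 ± 0.21 and -1.28 ± 0.30), and the histone chaperone gene Nasp (-1.15 ± 0.20 and -1.96 ± 0.37).

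**Figure D3:**
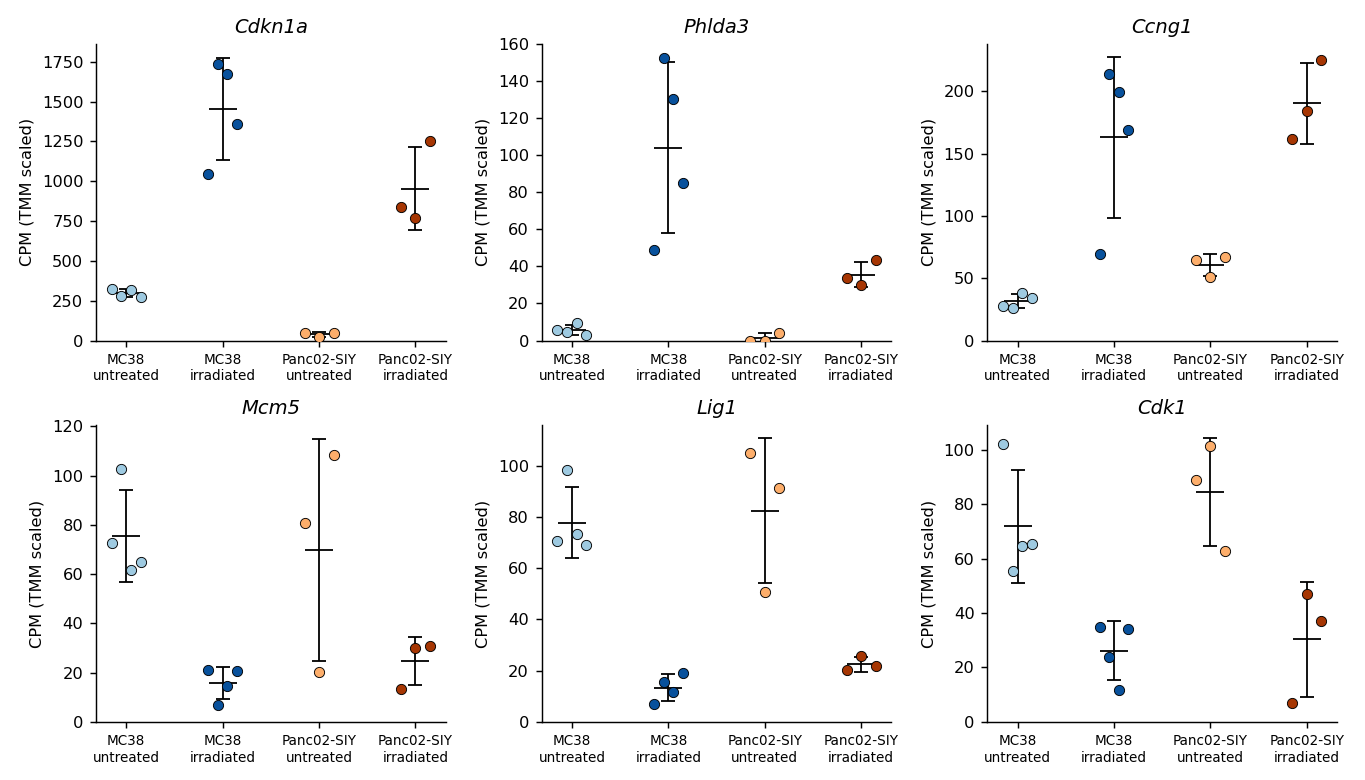
Level of 6 genes in cycling macrophages of each library (CPM scaled by the trimmed mean of M-values, linear axis from 0) by group, with means ± SD over 4 libraries a group in MC38 and 3 in Panc02-SIY. Cdkn1a, Phlda3 and Ccng1 were higher and Lig1 lower in every irradiated library than in any untreated library of the same tumor, whereas Mcm5 overlapped in Panc02-SIY.

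Replication-dependent histone genes made up much of the largest falls among called genes whose groups did not overlap. Hist1h2ap was at 187, 101, 106 and 77.7 CPM in untreated MC38 members and at 20.9, 6.99, 6.51 and 3.101 CPM in irradiated ones (-4.15 ± 0.46). Hist1h1a and Hist1h2ai had 25 and 24 UMIs over untreated MC38 libraries and 0 over irradiated ones, at least 3.59-fold and at least 3.45-fold lower against a floor of 3 UMIs over the group. In Panc02-SIY Hist1h2ab had 32 UMIs without and 0 with radiation, at least 8.17-fold lower. Hist1h3c fell in both tumors (-3.97 ± 0.83 and -4.15 ± 1.01). These genes are near-identical copies whose reads can be split between them, so the value of any single copy is uncertain. The S-phase cyclin gene Ccne2, at 15.7 to 50.1 CPM and at 0 to 2.60 CPM, completed the 5 largest such falls in MC38 (-3.77 ± 0.55).

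By the same choice, the 5 largest falls in Panc02-SIY were Hist1h2ab, Hist1h2ae (-6.30 ± 1.15), Hist1h3c, Id1 and the centromere gene Cenpp (-3.86 ± 1.16). The Cenpp call was lost in 11 settings, those of Hist1h2ab and Hist1h3c in 6 each and that of Hist1h2ae in 4. The 5 largest rises without overlap in MC38 were Phlda3, Fam212b (4.21 ± 0.73), the eotaxin gene Ccl24 (3.99 ± 0.92), D630023F18Rik (3.43 ± 0.72) and Trp53inp1, while Gdf15 (4.53 ± 0.96) was larger but overlapped. Under the rate requirement the log2 fold change of Ccl24 turned to -1.66. Those in Panc02-SIY were Cdkn1a, Arap2 (4.01 ± 1.20) and 3 genes with 0 UMIs in untreated members: the growth factor gene Hbegf with 14 UMIs after radiation (at least 6.09-fold higher), the Rac activator gene Tiam1 with 10 (at least 4.35-fold) and the keratin gene Krt80 with 9 (at least 3.92-fold). The calls of Arap2 and Krt80 were lost in 8 settings each, that of Tiam1 in 7 and that of Hbegf in 5.

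Genes of G2 and mitosis fell as well. In MC38, 36 of 55 were called lower and 1 higher, where 5.02% of all genes were called lower, with a median log2 fold change of -1.30. In Panc02-SIY, 8 of 55 were called lower and 1 higher, where 1.34% of all genes were called lower, with a median of -1.14. That count of 8 was 3 to 5 without untreated replicate 3 or 4 or irradiated replicate 2, 3 or 4, and 14 without untreated MC38 replicate 2, which enters the shared estimate of the spread. The gene called higher in both tumors was Psrc1, a microtubule-binding factor first described as induced by p53 (1.96 ± 0.42 in MC38).

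Cdk1 (ENSMUSG00000019942, chr10:69335146-69352912), the kinase that drives entry into mitosis, was at 102, 55.4, 64.6 and 65.2 CPM in untreated MC38 members and at 34.9, 23.8, 11.7 and 34.1 CPM in irradiated ones (-1.46 ± 0.27, edgeR, adjusted p = 0.000923). In Panc02-SIY it was at 89.1, 101.5 and 62.9 CPM and at 6.73, 47.2 and 37.0 CPM, without overlap, but the difference did not pass (-1.14 ± 0.47, adjusted p = 0.265). Cks1b, a small subunit that binds the kinase, was called lower in both (-1.50 ± 0.21 and -2.07 ± 0.34), as was Tmpo, a protein of the nuclear lamina (-1.13 ± 0.17 and -1.18 ± 0.25). The kinetochore gene Ndc80 was called lower in MC38 (-2.26 ± 0.34). Ccnb1, cyclin B1, did not pass in either tumor (-1.30 ± 0.59, adjusted p = 0.274, and -0.94 ± 1.01, adjusted p = 0.77).

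The promoters of the 2 lists held different letters in the RefSeq table of GRCm38.p6. Of 30 matched S phase genes, 11 (36.7%) held an E2F motif, TTTGGCGC or TTTCCCGC on either strand, against 1.80% of all 27025 promoters and 4.17% of the 48 matched G2 and mitosis genes. Of those 48, 34 (70.8%) held TTTGAA, the core of the cell cycle homology region (CHR) bound by the DREAM complex, against 20.2% of all promoters and 13.3% of the S phase genes. CCAAT stood in 66.7% of S phase, 77.1% of G2 and mitosis and 41.1% of all promoters. Such matches describe the letters and are not shown to be bound. An S phase promoter with 1 E2F match, an S phase promoter with 2 and the Cdk1 promoter with 2 CHR matches are shown as examples of these letters, matches in capitals, each read 5′ to 3′ on the strand of its gene. Mcm5 lies on the plus strand at chr8:75109338-75109389, Mcm6 on the minus strand at chr1:128359723-128359837 and Cdk1 on the minus strand at chr10:69352913-69353005.
Mcm5: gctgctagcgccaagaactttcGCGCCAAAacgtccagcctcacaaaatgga
Mcm6: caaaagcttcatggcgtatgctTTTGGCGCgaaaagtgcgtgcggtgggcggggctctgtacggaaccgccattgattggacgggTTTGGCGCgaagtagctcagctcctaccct
Cdk1: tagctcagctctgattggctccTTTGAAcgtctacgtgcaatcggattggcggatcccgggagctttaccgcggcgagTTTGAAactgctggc

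Summed over each list, S phase genes took 0.169 to 0.289% of the UMIs of untreated MC38 members and 0.0561 to 0.0675% of those of irradiated members. In the non-cycling macrophages of the same tumors the list took 0.0461 to 0.0951%, and in those of irradiated tumors alone 0.0461 to 0.0609%, which irradiated members of replicates 3 and 4 exceeded (0.0662 and 0.0675%). Beside the non-cycling cells of their own library, irradiated members took 0.0561 against 0.0609% in replicate 1 and 0.0579 against 0.0554% in replicate 2, so by S phase genes the name cycling is less well founded in irradiated than in untreated MC38 members. G2 and mitosis genes took 0.216 to 0.462% and 0.109 to 0.146% of UMIs in members, all above the 0.0716 to 0.0977% of irradiated non-cycling cells. In Panc02-SIY replicates 2 to 4 the S phase list took 0.178 to 0.285% without and 0.0817 to 0.104% with radiation, and the G2 and mitosis list 0.518 to 1.03% and 0.170 to 0.305%. The gate used Mki67 and Top2a, which move with these lists, so their height over non-cycling cells was chosen by the rule. In Panc02-SIY a fixed count of 2 UMIs asked for a higher level in the shallower untreated members than in the irradiated ones. Mki67 and Top2a stood at 6.08, 10.99 and 6.60 per 10000 UMIs in untreated and at 1.99, 3.99 and 4.92 in irradiated replicates 2 to 4. The part of the rule in the change with radiation was not tested. Under the rate requirement 2 S phase and 1 G2 and mitosis genes were called lower in Panc02-SIY, with medians of -1.21 and -1.001, and 15 of each list in MC38, with medians of -1.64 and -1.11. With members of at least 5000 UMIs alone, 15 and 2 were called lower in Panc02-SIY, with medians of -1.74 and -0.79.

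The MC38 members were also compared at a given level of the gate genes, as pooled values without replicate error. In members with 10 or more UMIs of Mki67 and Top2a, the S phase list took 0.336% of UMIs without and 0.0999% with radiation, and the G2 and mitosis list 0.694 and 0.280%. In members with 2 to 4, the S phase list took 0.110 and 0.0546% and the G2 and mitosis list 0.128 and 0.0979%. In Panc02-SIY members with 10 or more, the S phase list took 0.310 and 0.226% but the G2 and mitosis list 0.720 and 1.04%, the second from 3 cells, and with 2 to 4 they took 0.241 and 0.0853% and 0.435 and 0.150%. Mki67 itself was at 132, 44.7, 85.3 and 111 CPM in untreated and at 20.9, 37.8, 19.5 and 57.7 CPM in irradiated MC38 members, and Top2a at 137 to 255 and at 87.3 to 147 CPM. As genes of the rule they are described without a test.

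**Figure D4:**
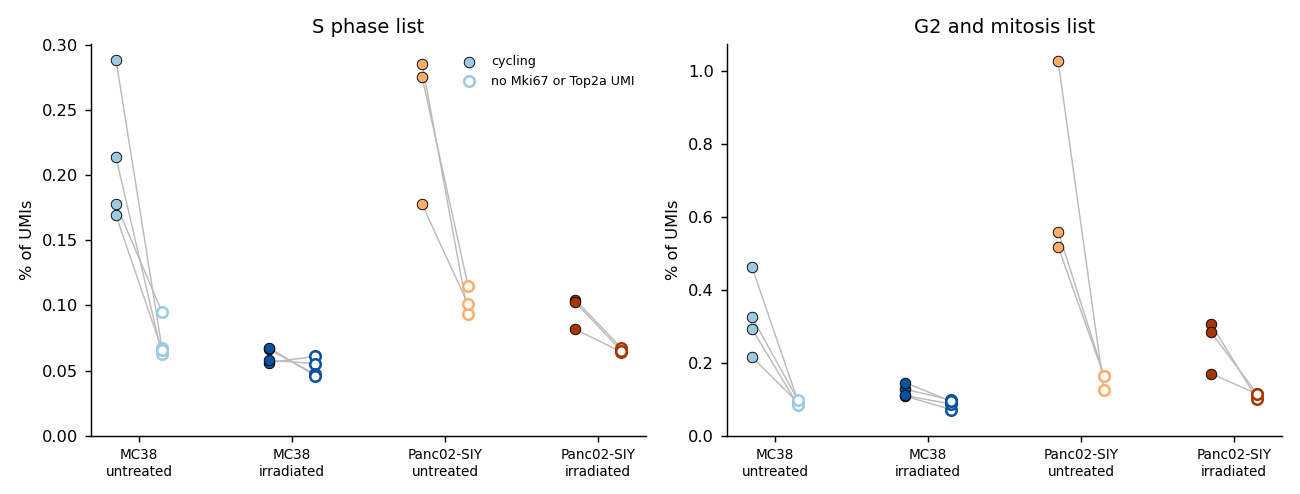
Percent of UMIs (y axis) taken by the S phase list and by the G2 and mitosis list in cycling macrophages (filled) and in C1q macrophages without Mki67 or Top2a (open) of each library, with lines joining the same library. The S phase list took 0.169 to 0.289% in untreated and 0.0561 to 0.0675% in irradiated MC38 members, and 0.0461 to 0.0609% in irradiated non-cycling cells.

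The balance between both lists was not seen to shift. The S phase share of the UMIs of both lists was 40.2% ± 11.6 in untreated and 33.6% ± 2.88 in irradiated MC38 members (SD, n = 4 each, exact permutation, adjusted p = 0.343). In Panc02-SIY it was 21.4 and 46.1%, values that rest on the libraries with 1 member, where 42 UMIs and 1 UMI gave 2.38% and 100%. Without libraries under 10 members it was 27.7 and 28.2%.

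Among 15 tested regulators of G1, 7 were called lower in MC38, where 5.02% of all genes were. They were the kinase genes Cdk4 (-1.02 ± 0.17) and Cdk2, the inhibitor gene Cdkn2c (-1.86 ± 0.37), E2f1, E2f2 and E2f8 (-1.63 ± 0.36), and the pocket protein gene Rbl1 (-1.42 ± 0.33). Ccnd2, cyclin D2, was called higher in both tumors, where 3.91 and 1.45% of all genes were. Its level in Panc02-SIY members was 105, 142 and 264 CPM without and 390, 630 and 503 CPM with radiation (1.38 ± 0.31, edgeR, adjusted p = 0.0298). The Ccnd2 call was lost in MC38 without untreated replicate 1, and in Panc02-SIY in 7 of 30 settings. Ccnd1, cyclin D1, did not pass (0.67 ± 0.32, adjusted p = 0.285, in MC38 and 1.36 ± 0.46, adjusted p = 0.211, in Panc02-SIY). Of 22 genes of DNA repair and checkpoints, Rad54l, H2afx, Chek1, Xrcc6 and Rad50 were called lower in MC38, 2 or 3 genes without untreated replicate 2, 3 or 4 or irradiated replicate 2 or 4, where 5.02% of all genes were. H2afx alone was called lower in Panc02-SIY, where 1.34% of all genes were, and fell by 2.38 on the log2 scale.

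All 8 genes of the MHC class II list, which present peptides to helper T cells or regulate that step, were called higher in irradiated MC38 members, where 3.91% of all genes were, with a median log2 fold change of 0.70, but 4 were called without untreated replicate 3 and 5 without irradiated replicate 3. H2-Ab1, the beta chain of I-A, was at 5214, 5906, 3497 and 4752 CPM in untreated and at 7434, 7804, 8489 and 7742 CPM in irradiated members, without overlap (0.70 ± 0.13, edgeR, adjusted p = 0.000368). Cd74, the invariant chain, rose by 0.84 ± 0.12, H2-Eb1 by 0.85 ± 0.13 and H2-Aa by 0.78 ± 0.15. Under the rate requirement 2 of the 8 were called, and their median was 1.14. In Panc02-SIY 0 of 8 were called by edgeR or DESeq2 and 1 had an unadjusted p below 0.05, with a median of 0.19, and H2-Ab1 was at 4625 to 5885 and at 4654 to 5637 CPM (0.03 ± 0.15, adjusted p = 0.975). The difference between tumors was not called for H2-Ab1 (0.67 ± 0.20, adjusted p = 0.648), while DESeq2 called that difference for 3 of the 8 genes.

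Of 46 tested interferon-stimulated genes, 14 were called higher and 0 lower in irradiated MC38 members, where 3.91% of all genes were called higher, with all 46 log2 fold changes above 0 and a median of 0.60, and 8 were called without irradiated replicate 2. Slfn5, a Schlafen gene, was at 119 to 150 CPM and at 210 to 426 CPM (1.07 ± 0.20, edgeR, adjusted p = 0.000961). Slfn1 (0.99 ± 0.16) and the DNA-sensing genes Ifi204 (0.71 ± 0.16) and Ifi211 (0.70 ± 0.16) were called too. Under the rate requirement 0 of the list were called, and the median was 0.03. In Panc02-SIY 5 of 46 were called higher: Slfn5 (1.64 ± 0.33), the tetherin gene Bst2 (0.95 ± 0.22), Ifi44 (2.85 ± 0.72), Usp18 (2.44 ± 0.64) and Isg15, where 1.45% of all genes were, with a list median of 0.89. The count was 1 without untreated replicate 4 or irradiated replicate 4 and 10 without irradiated replicate 2. The sign of Ifi44 turned under the rate requirement.

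Of 12 macrophage markers that the rule did not use, 4 were called higher in MC38, where 3.91% of all genes were, among them the lysosomal gene Cd68, Aif1 and the Fc receptor gene Fcgr1, and 4 in Panc02-SIY, where 1.45% were, among them Lyz2, Ms4a7 and Adgre1, which encodes F4/80. The MC38 count was 1 without untreated replicate 1 and 2 without irradiated replicate 2 or 4, and the Panc02-SIY count 2 without irradiated replicate 3. Adgre1 was at 219, 152 and 203 CPM in untreated and at 242, 407 and 398 CPM in irradiated Panc02-SIY members, without overlap (0.86 ± 0.22, edgeR, adjusted p = 0.0357). In MC38 it did not pass (0.38 ± 0.15, adjusted p = 0.155). The receptor gene Csf1r did not pass in either tumor (-0.11 ± 0.14, adjusted p = 0.745, and 0.49 ± 0.19, adjusted p = 0.223).

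Plac8, high in blood monocytes, was at 97.1 to 209 CPM in untreated and at 212 to 439 CPM in irradiated MC38 members (1.17 ± 0.27). In Panc02-SIY it was at 61.4 to 72.9 CPM and at 369 to 614 CPM (2.81 ± 0.43, edgeR, adjusted p = 0.00567), without overlap. It was the only one of 9 monocyte markers called in MC38, where 3.91% of all genes were called higher. In Panc02-SIY 3 were called, where 1.45% of all genes were, among them Plac8 and the integrin gene Itgam, with a list median of 2.04, and 0 were called without untreated replicate 4. The summed monocyte list was at 122, 205 and 195 CPM in untreated Panc02-SIY members of replicates 2 to 4 and at 1039, 681 and 1216 CPM in irradiated ones, and at 852 to 1009 and 515 to 1756 CPM in MC38. The defining monocyte genes Ly6c2 (2.90 ± 1.21, adjusted p = 0.331) and Ccr2 (1.44 ± 1.24, adjusted p = 0.698) did not pass in Panc02-SIY, nor in MC38 (0.27 ± 0.57, adjusted p = 0.876, and 0.29 ± 0.53, adjusted p = 0.851). In Panc02-SIY replicates 2 to 4 the NK cell list stood at 74.9, 749 and 101 CPM without and at 2360, 451 and 0 CPM with radiation, and the T cell list at 103, 121 and 65.4 CPM and at 38.2, 75.1 and 6.47 CPM. Panc02-SIY members were deeper after radiation than before, as given above, and their median mitochondrial content was 1.68% without and 3.63% with radiation, beside 3.05 and 2.95% in MC38. The part of depth, of this content and of these markers in the changes was not tested.

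**Figure D5:**
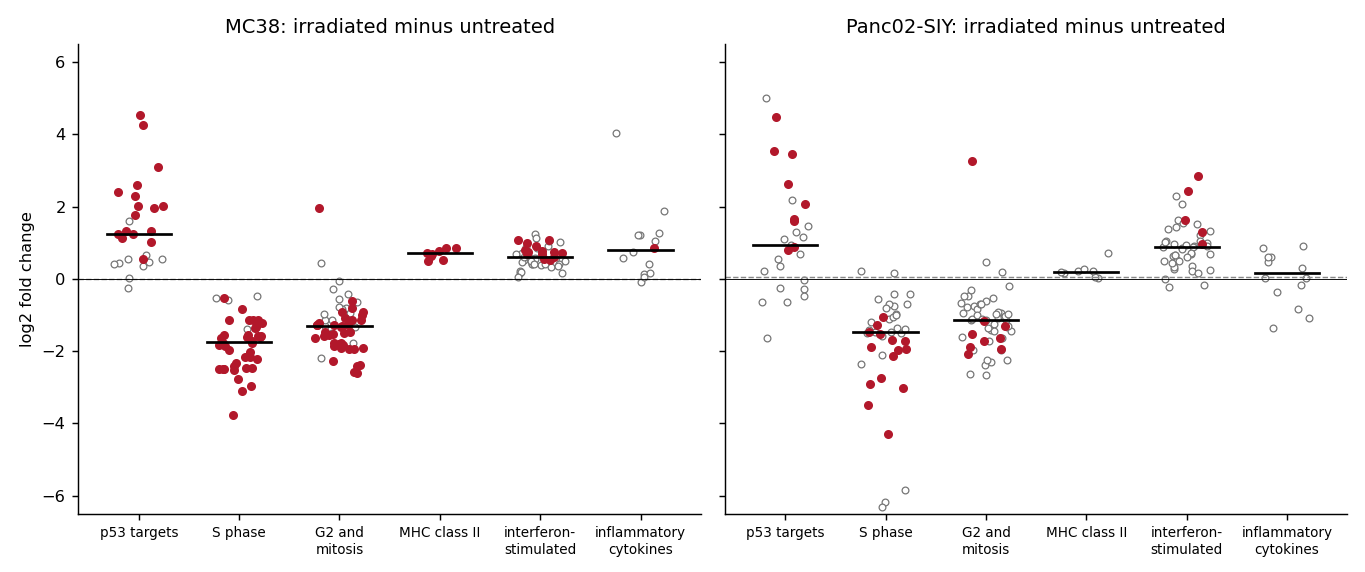
Log2 fold change with radiation (y axis) of each tested gene of 6 lists in cycling macrophages of MC38 and of Panc02-SIY, red where called and open where not, with a black bar at the list median and a dashed line at the median of all genes. The p53 list had medians of 1.24 and 0.92 and the S phase list -1.75 and -1.47. Il12b, at 10.3 in Panc02-SIY, lies beyond the axis.

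Each of 5 further lists held 1 to 3 genes called higher in MC38. An unadjusted p below 0.05 (edgeR) was reached there by 4 of 14 inflammatory cytokine, 7 of 17 metabolic and 4 of 13 lipid-associated macrophage genes. It was also reached by 4 of 8 CSF1 pathway and 6 of 15 immediate early genes, and by 1890 of all 10269 genes. The cytokine list had a median log2 fold change of 0.80. In MC38, Il1b was at 1122, 1601, 1465 and 1178 CPM in untreated and at 2953, 2731, 1983 and 2076 CPM in irradiated members (0.86 ± 0.20, edgeR, adjusted p = 0.0163), the only one of 14 tested inflammatory cytokines called. The angiogenic factor gene Vegfa was higher (1.18 ± 0.26), with overlapping groups, and the oxidase gene Ero1l lower (-0.59 ± 0.20, adjusted p = 0.0866), where 5.02% of all genes were called lower, among 17 genes of a metabolic list that covers hypoxia and glycolysis. The Ero1l call was lost without any single MC38 library other than irradiated replicate 4, and in 13 of 30 settings in all. The osteopontin gene Spp1 did not pass (-0.81 ± 0.38, adjusted p = 0.289). The lysosomal protease gene Ctsb (0.53 ± 0.14) and the lipid droplet gene Plin2 (0.54 ± 0.15) were called higher among 13 genes of lipid-associated macrophages. Cebpb and Csf2rb of the CSF1 pathway list (8 tested) and Jund, Dusp1 and Egr2 of the immediate early list (15 tested) were called higher, where 3.91% of all genes were. Each of these 5 lists held 1 to 5 genes called higher with any single library left out. In Panc02-SIY none of the lipid-associated, metabolic, cytokine or CSF1 lists had a called gene by edgeR (1, 1, 1 and 2 genes had an unadjusted p below 0.05), and Junb alone of the immediate early list was higher, where 1.45% of all genes were.

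Whether cycling macrophages answered radiation differently from non-cycling ones was tested on 10623 genes, with both sums of a library in a joint fit. In MC38, 21 genes (0.198%) differed, 4 (0.0377%) with a more positive and 17 (0.16%) with a more negative change in cycling cells. The count was 73 with the shared barcodes kept, 68 without the filter on low counts, 55 with at least 3 gate UMIs and 32 to 39 under the other gates. In Panc02-SIY 8 genes (0.0753%) differed, 2 (0.0188%) in the positive and 6 (0.0565%) in the negative direction, against 3 without the Fcrl5 requirement, 14 with at least 3 gate UMIs, 21 without the filter and 25 with members of at least 5000 UMIs. With 1 library left out the MC38 count was up to 39 (without irradiated Panc02-SIY replicate 2, and 32 without its replicate 3), and the Panc02-SIY count was 2 without untreated or irradiated replicate 3, 5 without irradiated replicate 4 or irradiated MC38 replicate 2 or 3, and 19 without untreated replicate 4. No p53 target of 27 tested was among them by edgeR or DESeq2 in either tumor, and 4 in each had an unadjusted p below 0.05, so the rise of these genes was not told apart between both kinds of macrophage. A test that does not pass does not show that they rose alike. MHC class II genes were not called either, though 7 of 8 in MC38 had an unadjusted p below 0.05 and DESeq2 called 2 with a more positive change in cycling cells.

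Of the 17 genes with a more negative change in MC38 cycling cells, the histone gene Hist1h2ap went from 114 to 9.28 CPM in cycling and from 11.4 to 7.65 CPM in non-cycling macrophages (difference in log2 change -3.51 ± 0.59, edgeR, adjusted p = 0.00162). The variant histone gene H2afz went from 1231 to 498 CPM and from 739 to 676 CPM (-1.18 ± 0.20). The others were Nusap1, Ube2c, Ccna2, Hmgn2, Ube2s, Tmpo, H2afx, Pclaf, Slfn9, Hist1h2ae, Rrm2, Tubb5, Srsf7, Lmnb1 and Ptma. Non-cycling cells were chosen to lack Mki67 and Top2a, so cycle genes started lower in them.

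Cyp27a1, Cebpd, Adgre1 and Malat1 changed in the other direction. Adgre1 went from 294 to 396 CPM in cycling and from 244 to 181 CPM in non-cycling MC38 macrophages (0.82 ± 0.20, edgeR, adjusted p = 0.0953), a call that was lost when any 1 of the MC38 libraries other than untreated replicate 3 and irradiated replicate 4 was left out, or 1 of 2 Panc02-SIY libraries (untreated replicate 2, irradiated replicate 3). The long noncoding RNA Malat1 went from 10350 to 18140 CPM and from 15420 to 18700 CPM (0.54 ± 0.10). In Panc02-SIY the tubulin genes Tubb5 (-1.08 ± 0.21) and Tuba1b (-1.18 ± 0.19), the nuclear transport gene Ran, Ptma, Spon1 and the interferon-induced gene Ifi27l2a had a more negative change in cycling cells, and Pou2f2 and Il12b a more positive one. The Il12b value came from 1 barcode. Tubb5 and Ptma (-0.62 ± 0.13 in MC38 and -0.76 ± 0.16 in Panc02-SIY) were called in both tumors.

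Between untreated tumors, cycling macrophages differed in 2005 genes (19.5% of those tested), 1183 higher in MC38 and 822 higher in Panc02-SIY, and 30.2% of genes had groups that did not overlap. With scaling by library size alone the split was 818 and 1299, so which side held more genes turned with the scaling. Without untreated Panc02-SIY replicate 4, which held 96 of 127 members, 918 genes were called. Under the rate requirement 1066 were called, and without the Fcrl5 requirement 4194. Tumor line, depth and the Fcrl5 requirement cannot be told apart in this comparison.

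Trem2 (chr17:48346401-48352276) was at 555, 484, 565 and 576 CPM in untreated MC38 members and at 0, 10.2 and 22.9 CPM in untreated Panc02-SIY members (log2 difference 4.94 ± 0.29, edgeR, adjusted p = 9.15e-15). Spp1 was at 458 to 1635 and at 0 to 8.10 CPM (7.13 ± 0.86). Neither gene overlapped between the tumors. Of the metabolic list 13 of 17 genes were called higher in MC38 (7 without untreated Panc02-SIY replicate 4), where 11.5% of all genes were called higher, among them the glycolytic genes Pgam1 (1.56 ± 0.21) and Gapdh (1.15 ± 0.20). Of the 12 macrophage markers that the rule did not use, 9 were called higher in MC38 and Aif1 lower. Of 13 genes of lipid-associated macrophages 8 were higher and Lpl lower. The chemokine genes Ccl2 (3.78 ± 0.62), Ccl7 and Ccl12 (4.80 ± 0.77) and Il1b were higher and Ptgs2 lower. Il1b changed sign under the rate requirement.

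Of 46 interferon-stimulated genes, 24 were called higher in untreated MC38 members (9 without untreated Panc02-SIY replicate 4), where 11.5% of all genes were, among them Bst2 (1.71 ± 0.21) and Oas1a (2.36 ± 0.31), and 4 (Gbp4, Gbp7 and Igtp among them) were called lower, near the 8% of all genes called lower. Of the other lists, all 5 tested neutrophil markers, 6 of 7 T cell markers, 3 of 5 NK cell markers and all 3 tested dendritic markers were called lower in MC38, where 8% of all genes were, in the direction of the marker levels given above, while 3 of 9 monocyte markers and Col3a1 of 3 tested tumor and stroma genes were called higher and 1 monocyte marker lower. Without untreated Panc02-SIY replicate 4, 3 neutrophil, 2 T cell and 1 NK cell markers were called lower and 1 monocyte and 0 tumor and stroma genes higher, and 0 NK cell markers were called without untreated replicate 3 of either tumor and 1 without untreated MC38 replicate 1 or 4. Xcr1 was at 0 to 2.53 CPM in untreated MC38 members and at 202, 40.6 and 126 CPM in untreated Panc02-SIY members (-6.49 ± 0.47).

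Of S phase genes 4 of 42 and of G2 and mitosis genes 15 of 55 were called lower in untreated MC38 than in untreated Panc02-SIY members, among them the kinesin gene Kif23 (-2.17 ± 0.35), where 8% of all genes were called lower, so the S phase share was near the background. The counts were 0 and 9 without untreated Panc02-SIY replicate 4, 7 and 7 without its replicate 3, 2 and 9 without untreated MC38 replicate 3, and the second was 9 without untreated MC38 replicate 4. None of either list were called higher by edgeR. Mcm5 (-0.24 ± 0.28, adjusted p = 0.635), Cdk1 (-0.05 ± 0.32, adjusted p = 0.948) and Pcna (-0.18 ± 0.22, adjusted p = 0.649) did not pass. Cdkn1a was higher in MC38 before radiation (2.78 ± 0.27, adjusted p = 1.72e-09), whereas Mdm2 (0.16 ± 0.36, adjusted p = 0.82) and Phlda3 (0.76 ± 0.97, adjusted p = 0.664) did not pass and Ccng1 was lower (-0.99 ± 0.31, adjusted p = 0.0298).

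Of the 10 genes with the largest differences between untreated tumors without overlap, 7 had 0 UMIs in the untreated members of one tumor. Against a floor of 3 UMIs over the group, Fcrls was at least 102-fold, the podoplanin gene Pdpn at least 27.6-fold, the lectin gene Mgl2 at least 23.1-fold, Fam159b at least 8.62-fold and the collagen gene Col14a1 at least 7.37-fold higher in MC38. Spic, a transcription factor of red pulp macrophages, was at least 156-fold and Apol7c at least 164-fold lower in MC38. The calprotectin gene S100a8 (-9.01 ± 1.25), H2-M2 (-8.81 ± 1.22) and Ccl24 (-7.98 ± 0.72) were also lower, with 4, 3 and 10 UMIs in untreated MC38 and 270, 197 and 349 in untreated Panc02-SIY members.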

How the data were processed

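Sorted CD45+ cells of 16 libraries were measured by 10x Chromium single-cell 3′ RNA sequencing (v3.0). The deposited values are UMI counts per gene and barcode, made by the authors with Cell Ranger 3.1.0 (bcl2fastq 2.20.0, mm10) per the study's methods and the submitters' processing notes, not normalized and already filtered to called barcodes. Barcodes needed 500 genes or more and a mitochondrial content of 10% or less, and a string seen in several libraries of a tumor line stayed only in the library with most of its UMIs. Doublets were left in; the automatic threshold of Scrublet marked 0.728% of kept barcodes, and removing the 5% with the highest scores was an alternative. Counts of members were summed per library and tested with edgeR 4.0.16 (R 4.3.3, quasi-likelihood, robust, trimmed mean of M-values, all 4 groups in a joint fit, filter with minimum count 3 and total 15) over 10269 genes, with Benjamini-Hochberg adjustment and calls at adjusted p below 0.1 and a fold above 1.3. Errors of log2 fold changes are standard errors from the F statistic. Shares were compared by exact two-sided permutation over libraries (scipy 1.17.1), and intervals cover counting error only. DESeq2 1.42.0, other gates, filters, scalings and single libraries left out were tried as alternatives. The fits were tested on simulated data. Promoters came from the RefSeq table of GRCm38.p6.

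The members, the gene lists and the tests were chosen with earlier results of these data known. Named genes were the gate genes, for each comparison the 5 called genes without overlap that rose most and the 5 that fell most, called genes of the listed pathways (at most 4 a list in full), a fixed set of genes, and the leading gene of each marker list. Id1 and the called genes of the macrophage, monocyte, DNA repair, CSF1 and immediate early lists, and those of the joint fit with non-cycling macrophages, were named after their values were seen. Some genes are not reported here.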

Additional observations from a re-analysis of the deposited data

Results flagged for a closer look

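Of 106 groups of 4 libraries tested for a library far from the others, 8 stood out, where chance gives about 1 in 20. The share of C1q macrophages that were cycling was 1.89% in irradiated Panc02-SIY replicate 1, the lowest of its group. The S phase share of cycle-list UMIs was 100% in the same library, where it rests on 1 UMI. Among levels in MC38 members, single libraries stood apart for Hist1h3c (0.62 CPM, irradiated), Ccr2 (409 CPM, untreated replicate 1), Hist1h2ab (6.51 CPM, irradiated), Spic (2.80 CPM, irradiated), H2-M2 (32.9 CPM, irradiated replicate 4) and Apol7c (1.302 CPM, irradiated). For Hist1h3c, Spic and Apol7c all other libraries of the group were at 0, where any value above 0 is flagged. The Hist1h3c value rests on 1 UMI. The tumors differed in their response to radiation by an interaction test for Cdkn1a (-2.18 on the log2 scale, MC38 minus Panc02-SIY) and for the share of kept barcodes that were cycling macrophages (-9.52 percentage points, exact permutation adjusted p = 0.0522). The latter no longer passed with the shared barcodes kept (-1.98, adjusted p = 0.343), thinned (-1.45, adjusted p = 0.296) or under the rate (-4.44, adjusted p = 0.113). The Cdkn1a call was kept in 28 settings and lost in 1.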

How the results depend on the processing

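Of 142 results for single genes, 64 kept their call and 138 their direction wherever one of 16 alternatives and 14 leave-outs gave a value. All 30 gave one for 124 results, and an adjusted p that DESeq2 left out was not counted as a lost call. Depth limits the comparison of tumors, since the rule counts UMIs in barcodes of unequal depth; where a result changed, the cause was not tested. Alternatives were at least 3 gate UMIs, at least 4 C1q UMIs per 1000, a rate of 2 gate UMIs per 10000, members with at least 5000 UMIs, the Fcrl5 requirement dropped, shared barcodes kept, and other filters, scalings and tools. The rate, the minimum of 5000 UMIs, the dropped Fcrl5 requirement, library size alone, thinning with Cd3 and Fcrl5 read beforehand and leaving out libraries under 10 members were chosen after seeing the data.

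Genes called in MC38 were 267 under the rate. In Panc02-SIY they were 186 with at least 3 gate UMIs, 110 under the rate, 108 with at least 5000 UMIs, 120 with those 2 groups fitted alone and 144 at adjusted p below 0.05. Between untreated tumors they were 1066 under the rate and 4194 without the Fcrl5 requirement. For the difference between tumors in the response they were 4 with at least 3 gate UMIs, 2 with the stricter C1q limit, 8 under the rate, 3 with at least 5000 UMIs, 3 with library size alone, 30 with DESeq2, 19 without the filter and 12 with the replicate block. For cycling minus non-cycling cells in MC38 they were 73 with shared barcodes kept, 55 with 3 gate UMIs, 36 with the C1q limit, 37 under the rate, 32 with at least 5000 UMIs, 39 without the Fcrl5 requirement and 68 without the filter, and in Panc02-SIY 14 with 3 gate UMIs, 25 with at least 5000 UMIs, 3 without the Fcrl5 requirement, 17 with DESeq2, 21 without the filter, 4 with a minimum count of 10 and 4 at adjusted p below 0.05.

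For the share of kept barcodes, the MC38 difference in points was -2.65 with shared barcodes kept, -2.18 thinned and -5.22 under the rate; the Panc02-SIY difference was 0.0283 with at least 5000 UMIs and -0.46 thinned after Cd3 and Fcrl5 were read (adjusted p = 0.0762); the untreated tumors differed by 6.65 with shared barcodes kept, 1.62 thinned and 6.65 under the rate; and the difference between tumors in the change was -1.98, -1.45, -4.44 and, thinned after reading, -1.39. For the share of C1q macrophages, the MC38 difference was -3.915 with shared barcodes kept, -3.59 thinned, -9.65 under the rate and -3.35 thinned after reading; the untreated tumors differed by 0.32, -6.26, 3.77 and -5.75; and the difference in the change was 2.28 thinned and 5.03 thinned after reading. The difference in the S phase share in Panc02-SIY, irradiated minus untreated, was -0.13 points with at least 3 gate UMIs and -0.0489 points with at least 5000 UMIs.

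Deviations of gene levels in same-numbered libraries of a tumor correlated at -0.02 to 0.03, so no pairing was seen in them. Replicate 4 held the most UMIs in all 4 groups (9833668 and 10121198 in MC38, 43776342 and 26824513 in Panc02-SIY). Whether replicate numbers mark libraries handled together was not tested. With the replicate block the share differences are the same values (-10.19, 22.56 and -9.52 for kept barcodes, -17.08 and 35.52 for C1q macrophages), and none passed. With 4 pairs a comparison within a tumor or of untreated tumors cannot go below p = 0.125 by exact permutation. The difference between tumors could have passed and did not (adjusted p = 0.24 for kept barcodes and 0.208 for C1q macrophages).

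Leaving out 1 library at a time gave 644 to 984 genes in MC38, 143 to 332 in Panc02-SIY (143 without irradiated replicate 3, 157 without irradiated replicate 4, 160 without untreated replicate 4 and 180 without untreated replicate 2), 918 to 2121 between untreated tumors, 1 to 5 for the difference in response, and 16 to 39 and 2 to 19 for cycling minus non-cycling cells. Differences in the share of kept barcodes ranged over -11.73 to -8.93 in MC38, -1.03 to -0.16 in Panc02-SIY, 21.29 to 24.07 between untreated tumors and -11.06 to -8.26 for the change. In the same order, those in the share of C1q macrophages ranged over -19.94 to -15.15 (adjusted p 0.0381 to 0.114 by exact permutation), -5.60 to 0.77 (0.77 without untreated Panc02-SIY replicate 4, 0.40 without irradiated replicate 1), 32.22 to 38.58 and -17.85 to -11.48. Those in the S phase share ranged over -9.48 to -0.94, 6.75 to 31.60, 12.46 to 23.23 and -38.21 to -13.37. Under the rate, the log2 fold change turned for Ccl24 in MC38 (-1.66), Ifi211 in MC38 (-0.00779), Ifi44 in Panc02-SIY (-4.82) and Il1b between untreated tumors (-0.19). In Panc02-SIY, S phase genes called lower ranged over 4 to 19 with single libraries left out and p53 targets called higher over 4 to 10.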
